A study of Mus musculus with 7 samples.

Results

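Neurotrophic factors of muscle and their receptors were examined in the quadriceps of AR113Q mice, a knock-in model of spinal and bulbar muscular atrophy (SBMA). The genes were Bdnf, Ntf3, Gdnf, Nrtn and Cntf, which encode secreted or released factors, and Ntrk2, Ngfr, Gfra1 and Cntfr, which encode receptors. All non-control probes carrying one of these names, in the array annotation or through a RefSeq accession, were taken, whatever their signal. They were 13 probes of 9 genes, on 31 spots, out of 39429 probes of 31131 genes on 43020 spots per array. Every group was C57BL/6 and 3 months old. RNA came from 4 mice labelled WT and 3 mice labelled AR113Q, 1 single-dye array per mouse. The sex of the mice is not in the labels, and the study's reporting summary states that its mice were male. AR113Q mice carry a humanized androgen receptor gene with an expanded CAG repeat at the endogenous locus. The labels call the controls wild type, while the study's results text describes controls with a humanized receptor of shorter repeat, so humanization may or may not be shared by both groups.

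Neurotrophic factors keep neurons alive and shape their contacts. Muscle makes several of them, and motor axons carry receptors for them. Brain-derived neurotrophic factor (Bdnf) and neurotrophin 3 (Ntf3) act through Trk receptor tyrosine kinases, of which TrkB (Ntrk2) is the one for Bdnf, and through the shared receptor p75 (Ngfr). Glial cell line-derived neurotrophic factor (Gdnf) and neurturin (Nrtn) bind a GFR alpha co-receptor on the cell surface, preferentially Gfra1 and Gfra2 respectively, and that complex engages the kinase Ret. Ciliary neurotrophic factor (Cntf), made mainly by Schwann cells, binds Cntfr and then the shared chains Il6st (gp130) and Lifr.

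The probes are shown first because 3 of the genes have more than 1 probe, and the probes of Ntrk2 and Cntfr read different transcripts. Each probe has 60 bases and is given 5′ to 3′ in the sense of the transcript with its mm9 position. The first 30 bases are printed, with 3 exceptions: the shared Ntrk2 probe is printed whole, and for the downstream Cntf probe and the Cntfr probe of variants 1 and 2 bases 28 to 57 are printed, where capitals mark a polyadenylation hexamer (AATAAA or ATTAAA). Of the 13 probes, 2 (15.4%) held such a hexamer, against 16.7% of the 39429 probes.
Nrtn, chr17:56890748-56890807, minus strand: aagggccctccctgccgaccctcgctgaga
Ntf3, chr6:126051431-126051490, minus strand: tttggcattcagtattgtcaaggccatgac
Cntf upstream, chr19:12838236-12838295, minus strand: ccttagaccacaggcatatttcgtcaagta
Cntf downstream, chr19:12838019-12838078, minus strand: ctgaaaagactgAATAAAcaaattggaagt
Cntfr variant 3, chr4:41616756-41616815, minus strand: taaagacaagctgtttagttttcaactgat
Cntfr variants 1 and 2, chr4:41604532-41604591, minus strand: tagggagttctcATTAAAcgtcaccatttc
Ntrk2 shared, chr13:58979563-58979622, plus strand: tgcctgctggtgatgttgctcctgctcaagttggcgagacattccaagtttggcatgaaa
Ntrk2 truncated form, chr13:59038046-59038105, plus strand: ttctcaccagcttaattttagccgatgcat
Ntrk2 full-length form, chr13:59230936-59230995, plus strand: tcaattgatacctatgtgcacgtgtgcaga

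The shared Ntrk2 probe matches RefSeq transcripts of the full-length kinase receptor and of the truncated receptor that lacks the kinase domain, and the other Ntrk2 probes match only 1 form each. Both Cntf probes also match a non-coding read-through transcript (Gm44505), so Cntf and the read-through cannot be told apart. The Cntfr probe called variant 3 here carries that name only in the array annotation, and its accession was not in the RefSeq gene table used. Bdnf, Gdnf, Gfra1 and Ngfr had 1 probe each, at chr2:109566961-109567020, chr15:7787474-7787533, chr19:58311604-58311663 and chr11:95430211-95430270. All these probes match spliced transcripts. Whether each lies in a UTR was not determined, but all 3 sense frames of the Nrtn probe, both Cntf probes and the probe of truncated Ntrk2 contain a stop codon, so none of these is wholly coding.

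The arrays came from 5 slides and 1 scan date, and slide 2, with WT replicate 2 and AR113Q replicate 1, was the only one shared by the genotypes. Between 48.9% and 56.9% of spots were well above background and none was saturated. Arrays correlated with one another at 0.908 to 0.987 across the 20991 probes tested, and probes are not independent replicates. Precision is limited by there being 7 arrays. Levels are log2 of background-subtracted intensity after quantile normalization, and no level is compared between probes. By the brightest probe of each gene, all 12 markers of skeletal muscle fibers were well above background on all 7 arrays. None passed the thresholds below by that probe, and the median log2 difference, AR113Q minus WT, was -0.1. Ckm (-0.80, limma adjusted p = 0.0101), Ttn (-0.66, 0.0264) and Actn3 (-0.60, 0.113) lay lower in AR113Q without overlap, and the others overlapped. Pvalb differed by -0.13 by its brighter probe and by -1.12 by its other one. The summed signal was 1180000 to 1340000 in WT and 969000 to 1300000 in AR113Q.

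Of the 13 probes, 11 probes of 8 genes were well above background on at least 3 arrays and were tested with limma. The Bdnf probe and the probe of full-length Ntrk2 were not. A probe was called where its adjusted p was at most 0.05 and its log2 difference at least 1 in size. Nrtn rose, and Ntf3 and the variant 3 probe of Cntfr fell. That is 3 of 11 probes (27.3%), where 24.8% of all probes tested were called, 12.2% higher in AR113Q and 12.6% lower. The share among the neurotrophic probes was thus near that of the array. Without the requirement on size, 5 of the 11 had an adjusted p of at most 0.05, against 43.8% of all probes. The genotypes did not overlap for 4 of the 11, against 49.6% of all probes. In 2 of them AR113Q lay above (25.4% of all probes) and in 2 below (24.2%). The median log2 difference was -0.02 over the 11 probes and 0.01 over all probes tested.

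**Figure D1:**
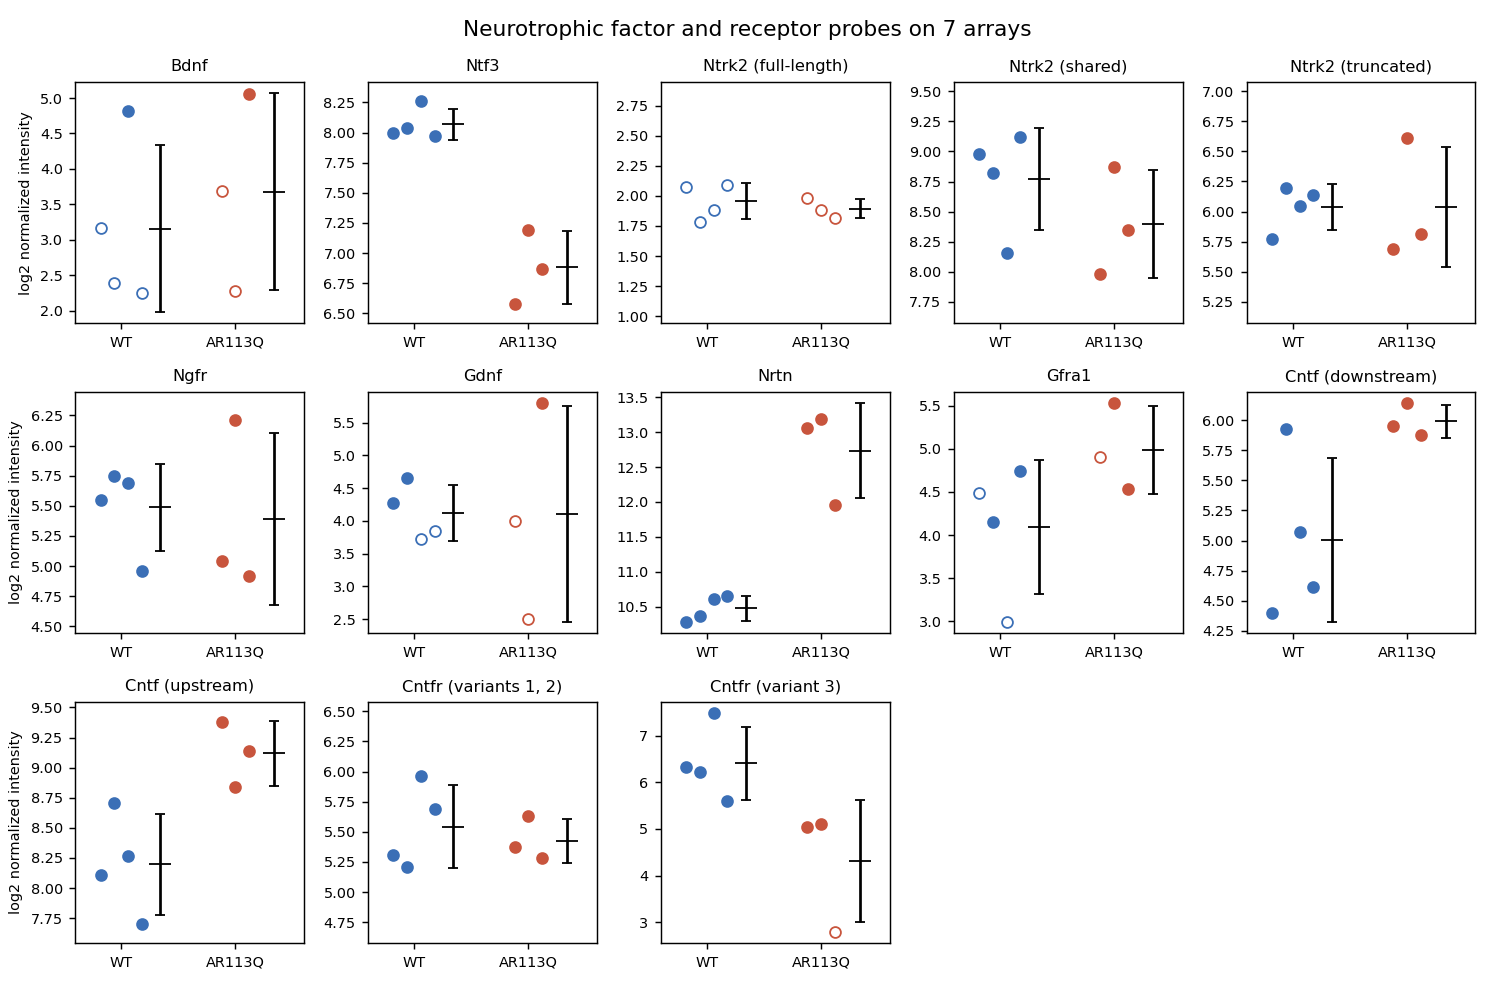
Log2 normalized intensity (y axis, its own scale in each panel) of all 13 probes on the 4 WT and 3 AR113Q arrays, 1 point per array, filled where the probe was well above background and open where it was not, with the mean and SD as bars. The AR113Q points lie above all WT points for Nrtn and the upstream Cntf probe, and below them for Ntf3 and Cntfr variant 3, while the remaining probes overlap.

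Among the neurotrophin ligands, Ntf3, which supports sensory and motor neurons through TrkC (Ntrk3), was lower in AR113Q. Its log2 level was 8.0, 8.04, 8.26 and 7.97 in WT replicates 1 to 4, and 6.58, 7.19 and 6.87 in AR113Q replicates 1 to 3. Each AR113Q array lay below each WT array, and all 7 arrays were well above background. WT averaged 8.07 ± 0.13 (SD, n = 4), and AR113Q 6.88 ± 0.31 (SD, n = 3), which is 2.28-fold lower (log2 difference -1.19, SE 0.18, 95% confidence interval -1.61 to -0.76, limma adjusted p = 0.00163). On slide 2 the difference was -1.46. The size was smaller where background was handled otherwise, at -0.79 with normexp correction and -0.85 with the mean spot intensity. In the authors' normalized values, which differ in more than background, it was -0.64. Each was under the threshold on size although limma's adjusted p stayed between 0.000844 and 0.00177.

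Bdnf, the TrkB ligand that is released with activity, was near the limit of the array. The log2 level was 3.17, 2.39, 4.82 and 2.25 in WT and 3.69, 2.28 and 5.06 in AR113Q. The probe was well above background only on WT replicate 3 and AR113Q replicate 3, where it was also highest. In a fit without the filter on dim probes the difference was 0.52 (limma adjusted p = 0.747), and it ran from -0.17 without AR113Q replicate 3 to 1.22 without AR113Q replicate 2, so a difference in Bdnf was not detectable with this probe.

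The neurotrophin receptors did not pass the test. The shared Ntrk2 probe gave 8.98, 8.82, 8.16 and 9.12 in WT and 7.98, 8.87 and 8.35 in AR113Q. The ranges overlapped, and the log2 difference was -0.37 (SE 0.29, 95% confidence interval -1.03 to 0.30, limma adjusted p = 0.331). The probe of the truncated receptor, which binds ligand without kinase signalling, gave 5.77, 6.20, 6.05 and 6.14 against 5.69, 6.61 and 5.81. Its difference was -0.01 (95% confidence interval -0.57 to 0.56, limma adjusted p = 0.982). The probe of the full-length form, printed on 10 spots, did not rise well above background on any of the arrays, with log2 levels of 1.78 to 2.09 in WT and 1.82 to 1.98 in AR113Q, and was not tested. Signal for Ntrk2 was thus measured by the shared probe and the truncated-form probe, and the full-length form was not detectable with its own probe.

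Ngfr, the p75 receptor that Schwann cells raise after nerve injury, was also read by 10 spots. It gave 5.55, 5.75, 5.69 and 4.96 in WT and 5.04, 6.21 and 4.92 in AR113Q. AR113Q replicate 2 was the highest of all arrays and AR113Q replicate 3 the lowest. The log2 difference was -0.10 (SE 0.34, 95% confidence interval -0.88 to 0.69, limma adjusted p = 0.838).

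The partners of these genes were taken from a list of 17 neurotrophin ligands, receptors and adaptors, of which 13 were tested. Furin and Shc1 rose and Ntf5 fell, 3 of 13 (23.1%, against 24.8% of all probes), with a median log2 difference of -0.03. Ntf5 encodes neurotrophin 4, the other TrkB ligand. It read 8.51 in WT and 6.20 in AR113Q (fell by 2.30 on the log2 scale, SE 0.41, limma adjusted p = 0.00297), and the arrays did not overlap. In the authors' normalized values its difference was -1.0, just under the threshold on size. Furin, a protease that cleaves proneurotrophins, was higher by 1.47 (SE 0.28, limma adjusted p = 0.00362), and Shc1, an adaptor at activated Trk receptors, by 1.37 (SE 0.19, limma adjusted p = 0.00111). The Ntf3 receptor Ntrk3 differed by -0.22 (limma adjusted p = 0.552). Only 1 of its 4 probes was tested, and that probe was dim, well above background on 2 WT and 2 AR113Q arrays. Sort1, which pairs with p75 for proneurotrophins, differed by -0.22 (limma adjusted p = 0.551) by its brightest probe, and its 3 tested probes ran from -0.46 to 0.56.

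**Figure D2:**
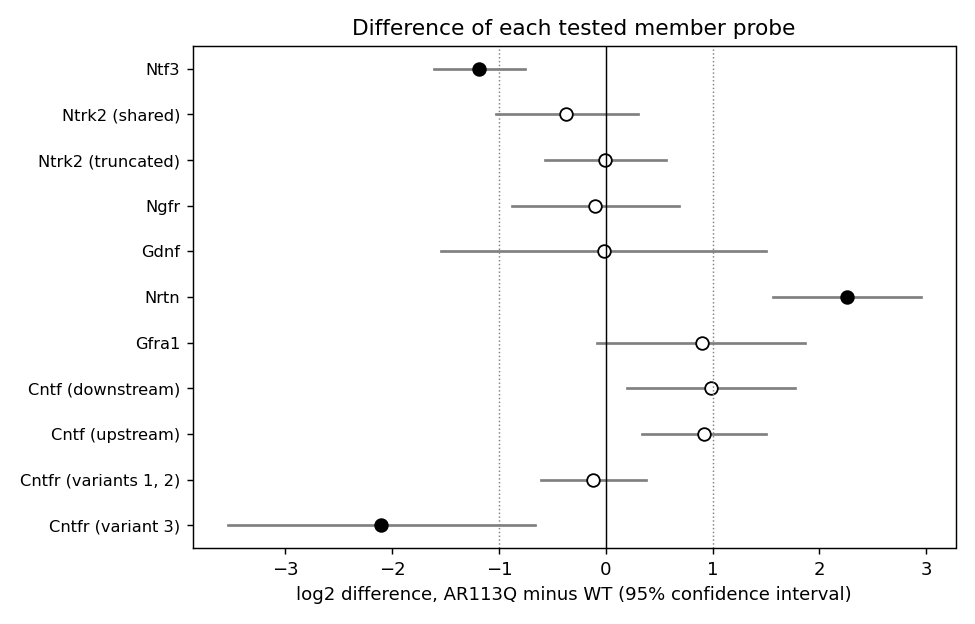
Log2 difference, AR113Q minus WT (x axis), of the 11 probes tested, with the 95% confidence interval as a line and a filled point where the probe passed both thresholds, and dotted lines at a log2 difference of 1 in either direction. Nrtn lies at 2.26, Ntf3 at -1.19 and Cntfr variant 3 at -2.10, and the widest intervals belong to Gdnf and Cntfr variant 3.

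Nrtn showed the largest increase among these probes. Its log2 level was 10.28, 10.36, 10.61 and 10.65 in WT and 13.06, 13.19 and 11.95 in AR113Q. The lowest AR113Q array, replicate 3, was still above the highest WT array. Before normalization the spot read 812, 1270, 1380 and 1390 intensity units in WT and 10500, 12400 and 4920 in AR113Q. WT averaged 10.48 ± 0.18 (SD, n = 4), and AR113Q 12.74 ± 0.68 (SD, n = 3), which is 4.79-fold higher (log2 difference 2.26, SE 0.30, 95% confidence interval 1.57 to 2.95, limma adjusted p = 0.000846). Of all probes tested, 2.02% had a larger increase. The difference on slide 2 was 2.70, and Nrtn passed both thresholds in 19 of 20 alternative settings (log2 difference 2.03 to 2.70), missing once slide entered as a fixed effect, where no probe of the array was called (2.70, limma adjusted p = 0.0509).

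The promoter of Nrtn is shown because it is the gene with the largest increase. The 250 bases before its RefSeq start (GRCm38.p6, chr17:56757549-56757798, minus strand) hold one CAGCTG, a form of the E-box that myogenic factors bind, in capitals.
Nrtn promoter: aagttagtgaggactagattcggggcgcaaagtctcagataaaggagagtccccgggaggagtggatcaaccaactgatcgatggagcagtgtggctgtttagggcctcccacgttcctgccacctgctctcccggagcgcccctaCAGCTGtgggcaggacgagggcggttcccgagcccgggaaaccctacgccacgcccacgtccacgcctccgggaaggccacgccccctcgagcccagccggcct
Letters were searched on both strands of the 250 bases before each RefSeq start. CAGCTG, which reads the same on both strands, was in 13.0% of 32851 promoters and in 5 of the 22 promoters of the 9 genes. The androgen response half-site AGAACA was in 16.1% of all promoters and in 3 of the 22, all of them of Bdnf, and not in that of Nrtn. A full androgen response element, that half-site repeated inverted after a spacer, was in 3 of the 32851 promoters and in none of the 22.

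Gdnf, the most studied survival factor for motor neurons, was dim. It gave 4.27, 4.65, 3.72 and 3.84 in WT and 4.0, 2.51 and 5.80 in AR113Q, and was well above background on WT replicates 1 and 2 and AR113Q replicate 3. The AR113Q arrays held both the lowest and the highest value. The log2 difference was -0.02 with an SE of 0.66 (95% confidence interval -1.54 to 1.5, limma adjusted p = 0.982), so a change of up to about that size in either direction was not detectable.

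Gfra1, the preferred co-receptor of Gdnf, gave 4.49, 4.15, 2.99 and 4.74 in WT and 4.90, 5.53 and 4.53 in AR113Q. It was well above background on 2 WT and 2 AR113Q arrays. AR113Q replicate 3 lay below WT replicate 4, so the groups overlapped. The log2 difference was 0.90 (SE 0.42, 95% confidence interval -0.08 to 1.87, limma adjusted p = 0.12), which did not pass.

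The other GDNF family genes went down where they passed the test. Of 9 listed, 6 were tested. Artn passed the filter on dim probes through its WT arrays alone, so its call is not counted as support. Of the other 5, Ret, Gfra2 and Gfra3 fell (60%, against 12.6% of all probes lower), with a median log2 difference of -1.56. These 3 genes reached the minimum of 3 arrays only when their WT arrays, the higher group, were counted. That share and median are thus not counted as support either. The co-receptor of Nrtn, Gfra2, read 8.35, 8.23, 7.70 and 7.96 in WT and 4.35, 5.99 and 5.54 in AR113Q. Each AR113Q array was below each WT array (fell by 2.76, SE 0.37, 95% confidence interval -3.61 to -1.92, limma adjusted p = 0.000873). Only 2 of the 3 AR113Q arrays were well above background for Gfra2, and its difference was -1.31 with normexp correction. Ret, the signalling kinase of the family, read 7.08 in WT and 4.29 in AR113Q (fell by 2.79, SE 0.44, limma adjusted p = 0.00174), with 2 of the 3 AR113Q arrays well above background and a difference of -1.06 with normexp correction. Gfra3, the co-receptor of artemin, read 5.40 in WT and 3.84 in AR113Q (log2 difference -1.56, SE 0.29, limma adjusted p = 0.00371), but only 1 AR113Q array was well above background, so the size of that fall is uncertain. It was -0.37 with normexp correction and -0.35 with the mean spot intensity, under the threshold on size. Artn, which encodes artemin, passed the background test on 3 WT arrays but on none of the AR113Q arrays. On the normalized scale used here it was lower by at least 2.08-fold (limma adjusted p = 0.00214), the bound setting the WT mean against the lowest signal called above background. Gfra4, the co-receptor of persephin, differed by -0.62 (limma adjusted p = 0.194) by its brightest probe, and its 3 tested probes ran from -1.21 to -0.62. The family's falls were smaller in the authors' normalized values. There Gfra2 was at -0.96, Ret at -0.69 and Gfra3 at -0.20, each under the threshold on size and so not called. Artn lost its call with normexp correction (-0.28, limma adjusted p = 0.105), where that bound was not met. In AR113Q quadriceps the ligand Nrtn was thus higher on the same arrays on which its co-receptor Gfra2 and the kinase Ret were lower.

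Cntf was higher by nearly 1 on the log2 scale in both of its probes, without passing the threshold on size. The upstream probe gave 8.11, 8.71, 8.27 and 7.70 in WT and 9.38, 8.84 and 9.14 in AR113Q. These groups did not overlap, though AR113Q replicate 2 was close to WT replicate 2. The log2 difference was 0.92 (SE 0.25, 95% confidence interval 0.34 to 1.5, limma adjusted p = 0.0196), and it was 1.09 without WT replicate 2 and 1.06 without AR113Q replicate 2, which passed both thresholds. Without AR113Q replicate 1 it was 0.79 (limma adjusted p = 0.0676), and in the authors' normalized values 0.67 (0.0156). The downstream probe, with the polyadenylation hexamer, gave 4.40, 5.93, 5.07 and 4.61 in WT and 5.95, 6.14 and 5.88 in AR113Q. WT replicate 2 lay among the AR113Q arrays. Its log2 difference was 0.99 (SE 0.34, 95% confidence interval 0.20 to 1.77, limma adjusted p = 0.0457), and it was 1.30 without WT replicate 2, which passed (0.0049). With slide as a random effect it was 1.03 (0.039), which also passed. When any other array was left out the adjusted p was 0.0748 to 0.121, and the difference was 0.35 with normexp correction (0.088) and 0.38 with the mean spot intensity (0.0984). On slide 2, where WT replicate 2 is the control, the differences were 0.67 and 0.03.

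Cntfr gave different values by probe. The variant 3 probe gave 6.32, 6.23, 7.49 and 5.59 in WT and 5.04, 5.10 and 2.79 in AR113Q. Each AR113Q array was below each WT array, and AR113Q replicate 3, the lowest, was not well above background. The log2 difference was -2.10 (SE 0.63, 95% confidence interval -3.54 to -0.66, limma adjusted p = 0.027), 4.29-fold lower. Without AR113Q replicate 3 it was -1.34 (limma adjusted p = 0.0534), and the call was also lost without WT replicate 1 (limma adjusted p = 0.0537), 2 (0.0505) or 3 (0.0558). The log2 difference was -0.66 with normexp correction and -0.41 in the authors' normalized values, which differ from the values used here in more than background. The probe of variants 1 and 2 gave 5.31, 5.21, 5.96 and 5.69 in WT and 5.37, 5.63 and 5.28 in AR113Q. These overlapped fully (log2 difference -0.12, SE 0.22, 95% confidence interval -0.61 to 0.38, limma adjusted p = 0.692). The difference between the 2 Cntfr probes was not itself tested.

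Of 17 other genes of the CNTF and gp130 cytokine family, 13 were tested. Il6 passed the filter on dim probes through its AR113Q arrays alone, so its call is not counted as support. Of the other 12, 2 rose and 3 fell (41.7% called, against 24.8% of all probes, median log2 difference 0.45). Among those that fell was Lifr, one of the signalling chains Cntf uses. It fell by 1.42 (SE 0.17, limma adjusted p = 0.000601) by its brightest probe, while its 3 tested probes ran from -1.42 to -0.44. Jak2, a kinase bound to such chains, also fell (log2 difference -1.75, SE 0.21, limma adjusted p = 0.000544). The other chain, Il6st, differed by 0.57 (SE 0.19, limma adjusted p = 0.0394), under the threshold on size. Il6ra, the interleukin 6 receptor, rose by 2.96 (SE 0.31, limma adjusted p = 0.000347) and Stat3, the transcription factor at the end of these receptors, by 1.47 (SE 0.21, limma adjusted p = 0.00111). Il6 was well above background on no WT array and on all AR113Q arrays and was at least 2.5-fold higher on the normalized scale used here (limma adjusted p = 0.00559). The call was lost with normexp correction (log2 difference 0.35, limma adjusted p = 0.0516) and with the mean spot intensity (0.33, 0.0578), where that bound was not met. Clcf1, a cytokine that also acts through Cntfr, was well above background on 2 AR113Q arrays and no WT array and was not tested.

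**Figure D3:**
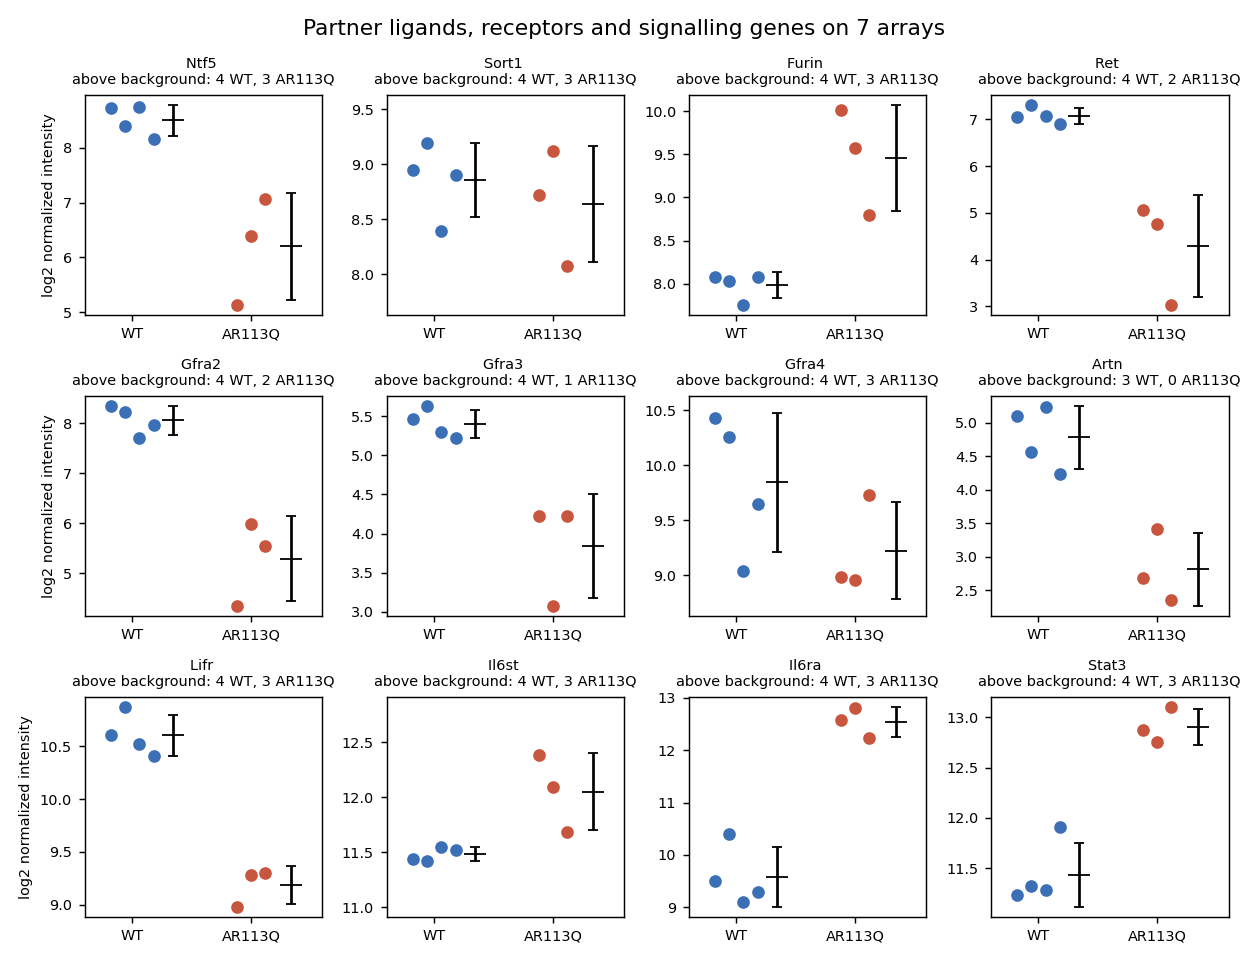
Log2 normalized intensity (y axis, its own scale in each panel) of 12 partner genes on the 4 WT and 3 AR113Q arrays, 1 point per array with the mean and SD as bars, and the number of arrays well above background over each panel. Ntf5, Ret, Gfra2, Gfra3, Artn and Lifr lie lower in AR113Q without overlap, Furin, Il6st, Il6ra and Stat3 higher without overlap, and Sort1 and Gfra4 overlap.

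Nerve-related genes give the setting of these values, and 1 of them was also counted in the GDNF family list. Of 14 genes that respond to denervation of muscle, 13 were tested, 4 rose and 3 fell (53.8% called, against 24.8% of all probes), with a median log2 difference of 0.20. Runx1, a transcription factor of denervated muscle, rose by 5.62 (SE 0.30, limma adjusted p = 4.5e-05) by its brighter probe, which was well above background on 3 of the 4 WT arrays, and its other probe differed by 2.37. The size for Runx1 was 3.35 with normexp correction, 3.52 with the mean spot intensity and 2.83 in the authors' normalized values, all called. Also higher were the stress gene Gadd45a by 2.39, the acetylcholine receptor subunit gene Chrna1 by 1.77 and Musk, the kinase of the neuromuscular junction, by 1.62. The adult receptor subunit gene Chrne (-1.25), the Musk activator Dok7 (-1.45) and acetylcholinesterase, Ache (-1.60), fell. None of the 3 reached the threshold on size with normexp correction (-0.54, -0.92 and -0.77 in that order), the mean spot intensity or the authors' normalized values (-0.34, -0.73 and -0.57). The call of Chrne was lost without AR113Q replicate 1 (-0.93), and that of Ache without any single WT array (limma adjusted p = 0.0509 to 0.0932) or AR113Q replicate 1 (-0.86). Myog (-0.20) and Chrnd (0.20) did not pass. Of 12 other trophic factors, 7 were tested and 1 fell, Ptn, which encodes pleiotrophin (-2.50, SE 0.60, limma adjusted p = 0.011), with a second probe at -1.02, a difference of -1.65 without AR113Q replicate 1 and of -0.35 in the authors' normalized values.

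Markers of other cells in muscle were read on the same arrays, where 12.2% of all probes were called higher and 12.6% lower. In bulk tissue, fewer cells of a type and less RNA per cell cannot be told apart. Of 15 Schwann cell markers, 11 were tested and 3 fell (27.3%), S100b and Cnp among them, with a median of -0.68, and the summed signal was 2900 to 6080 in WT and 1900 to 2680 in AR113Q, without overlap. Cdh19, Gfap and Erbb3 passed the background test on no array, and Foxd3 on 1. Of 9 fibroblast markers all were tested and 6 fell (66.7%), with a median of -2.25 and a summed signal of 105000 to 131000 against 76600 to 110000. Of 8 macrophage markers 3 fell and 1 rose (50%), with a summed signal of 7220 to 12100 against 4880 to 6550. Of 8 endothelial markers 1 fell (12.5%), of 8 pericyte and smooth muscle markers 2 fell (25%), and of 6 satellite cell markers above background in both genotypes 2 rose and 2 fell (66.7%). Of 9 neuron markers 4 were tested and 1, Uchl1, rose by 2.89 (25%). Only 2 WT arrays were well above background for Uchl1, so the size of that rise is uncertain. The part of these markers in the values of Ntf3, Cntf, Cntfr, Ret and the GFR alpha genes was not tested.

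The genes whose pattern over the 7 arrays was most like that of a called gene were found by the root mean square difference of log2 levels after each probe was centred on its own mean. For Nrtn they were Hmgb2 (0.148) and Map1lc3b (0.205). For Ntf3 they were Snrnp35 (0.071) and Selenof (0.074), and for Cntfr variant 3 they were Cd40 (0.488) and 2310015K22Rik (0.492). Among these the distances for Cntfr were the largest.

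**Figure D4:**
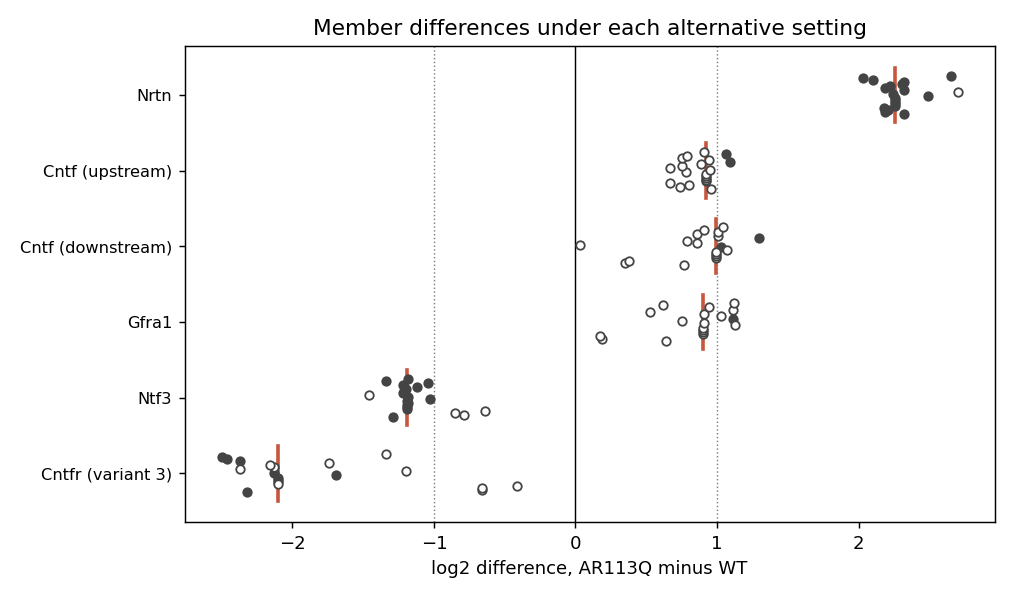
Log2 difference, AR113Q minus WT (x axis), of 6 probes under each alternative setting, 1 point per setting, filled where the probe passed both thresholds, with the reported value as a vertical bar and dotted lines at a log2 difference of 1 in either direction. Nrtn passed in 19 of 20 settings, Ntf3 in 16 of 20 and Cntfr variant 3 in 9 of 19, and no point of these probes crossed 0.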

How the data were processed

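The authors hybridized Cy3-labelled quadriceps RNA to Agilent arrays and extracted spots with Feature Extraction 10.7.3.1. The deposited scanner files hold a background-subtracted processed intensity per spot, not normalized between arrays, and a mean spot intensity with its local background. The authors also deposited quantile-normalized log2 values for 18592 probes, 8 of them among the 13 reported, used as an alternative. Here, outlier spots (94 to 151 per array) were left out, log2 processed intensity was quantile normalized over non-control spots, and spots of a probe were averaged. The 20991 probes that cleared background on 3 or more of the 7 arrays were tested with limma 3.58.1 (lmFit and eBayes) in R 4.3.3, with Benjamini-Hochberg adjustment over all of them. The procedure was tested on simulated data. Background subtraction widens the spread of dim spots on the log2 scale.

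The genes and lists were chosen with earlier results of these arrays known. Every probe of the 9 genes is named, with their ligand and receptor partners, up to 3 called genes per direction of each pathway list, extremes of marker lists, and the 2 genes most like each called one. The brightest tested probe stands for each listed gene. Alternatives were 75th percentile scaling, normexp (offset 50), mean intensity, the authors' values, no or a stricter filter, 1 probe per gene, outlier spots kept, an intensity trend, array weights, slide, replicate block, and leaving out each array. Mice were the replicates. Some genes that were measured and counted in the lists are not reported here by name. Names came through RefSeq for 28330 probes.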

Additional observations from a re-analysis of the deposited data

Results flagged for a closer look

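In the group of 4 WT arrays, 1 array stood apart from the other 3 for 4 of the 37 genes and probes examined, by Dixon's ratio of the gap to the range. Chance alone gives such a ratio in about 5% of groups. The genes were Ntrk3 (ratio 0.886, WT replicate 1 at 3.75 and the others at 4.49 to 4.59), Furin (0.859, replicate 3 at 7.76 and the others at 8.03 to 8.08), Stat3 (0.864, replicate 4 at 11.91 and the others at 11.23 to 11.32) and Runx1 (0.852, replicate 1 at 4.37 and the others at 4.99 to 5.10). None of the 13 probes of the 9 neurotrophic genes was among them. For Furin, Stat3 and Runx1 the genotypes did not overlap.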

How the results depend on the processing

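Across all probes, 5208 were called. The count was 2075 with normexp correction, 2264 with the mean spot intensity, 1592 in the authors' normalized values and 0 with slide as a fixed effect, where 7923 had an unadjusted p of at most 0.05. The probes called among the 13 numbered 3, and in the same 4 settings 1, 1, 1 and 0. The listed genes called numbered 43, and in these settings 26, 28, 21 and 0. Leaving out each array in turn gave 4454 to 5563 probes, 2 to 4 of the 13 and 38 to 45 listed genes. Replicate numbers did not pair the arrays (correlations of deviations 0.041, -0.016 and 0.156). With the replicate block, 5190 probes, 3 of the 13 (Nrtn, Ntf3 and Gfra1) and 44 listed genes were called, Gfra1 at 1.11 (limma adjusted p = 0.0316) and Cntfr variant 3 at -2.37 (0.0512).

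Small differences changed sign, and none of them passed a test in either direction. The truncated Ntrk2 form was at 0.28 with array weights, 0.00 with slide as a random effect, 0.03 with the replicate block, and between -0.30 and 0.17 when single arrays were left out. Ngfr was at 0.02 in the authors' values, 0.30 with array weights, and between -0.51 and 0.14 with an array left out. Gdnf was at 0.08 with normexp, 0.10 with mean intensity, 0.02 with slide as a random effect, and between -0.87 (without AR113Q replicate 3) and 0.78 (without AR113Q replicate 2). Cntfr variants 1 and 2 were at 0.00 with array weights, 0.16 with slide as a fixed effect, and between -0.23 and 0.02 with an array left out. Ntrk3 was at 0.03 with normexp, 0.01 with slide as a fixed effect and between -0.42 and 0.02 with an array left out, and Sort1 between -0.46 and 0.06. The cause was not tested. Signal near background limits Bdnf, Gdnf, Gfra1, Ntrk3 and full-length Ntrk2, and 5 slides with 1 shared by both genotypes limit any account of slide.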
